A study of Mus musculus with 20 samples.

Results

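The comparison described here sets the adrenal RNA of 5 females labelled Bmal1 KO against that of 5 control females, across every gene of the deposited table. The libraries were taken by their titles, and they are 10 of the 20 RNA-sequencing libraries of the series. All are from whole adrenal glands of mice. Both genotype labels carry the Cre driver: the controls are labelled SCC::Cre_CTRL and the other group SCC::Cre_BMAL1 KO. SCC is also the short name of the side-chain cleavage enzyme, the product of Cyp11a1, which steroid-producing cells of the cortex make. The age labels were 3.4, 2.7, 2.7, 1.5 and 1.5 months for controls 1 to 5, and 3.4, 2.7, 2.6, 2.4 and 2.4 months for Bmal1 KO 1 to 5. The other 10 libraries are from males, 6 control and 4 Bmal1 KO. Per the labels' protocols, a Direct-zol kit was used to purify the RNA and a TruSeq RNA kit to build the libraries. The sources used here do not state which exons were removed, at what time of day glands were collected, which mice were littermates or how strand was set in counting. Nothing in the labels says that libraries of equal age came from separate animals. So p-values measure only the spread between samples, pooled here over the 4 groups of all 20 libraries, and that spread may be technical. For pairs of female libraries, chi-square per degree of freedom is near 1 where read counts differ by sampling alone. At equal age it was 29.39 for controls 2 and 3, 34.49 for controls 4 and 5 and 23.68 for Bmal1 KO 4 and 5. Whether these pairs are separate animals was not tested.

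BMAL1, encoded by Arntl, pairs with CLOCK and switches on genes that hold E-box sequences, among them its own repressors of the Period and Cryptochrome families and the REV-ERB receptors. The loop runs in most cells and times, among other things, the daily release of glucocorticoids from the adrenal. The cortex is layered: the outer zona glomerulosa makes aldosterone, the zona fasciculata below it makes corticosterone, and young female mice keep a further inner layer, the X-zone. The medulla inside makes catecholamines. All of these are in the tissue sequenced, and in bulk tissue fewer cells of a type and less RNA per cell cannot be told apart.

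Values are read counts that the authors divided by 1 size factor per library, called normalised read counts or reads below. Depth was 20401098 to 24504308 recovered reads in the control females and 21056668 to 24716665 in the other group. The share of reads from mitochondrially encoded genes was 8.54% to 11.5% in the controls and 8.17% to 11.2% in Bmal1 KO. On a principal component analysis of the 10 female libraries the first component held 14.9% of the variance and the second 14.6%. The enzymes that define the cortex and the medulla were both well read: Cyp21a1 gave 234607 to 315703 reads in the controls and 214567 to 280844 in Bmal1 KO, and Th 8787 to 13818 and 7469 to 8595. Differences are on the log2(value + 1) scale, Bmal1 KO minus control, with a standard error (SE). Group means carry a standard deviation (SD, n = 5 in each group of females). A gene was called at an adjusted p under 0.05 from limma, with Benjamini-Hochberg adjustment over the 26612 genes tested.

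Of these 26612 genes 467 were called (1.75%), 298 of them higher in Bmal1 KO (1.12%) and 169 lower (0.635%). At least a 2-fold difference was seen for 119 of the higher and 54 of the lower genes, and at least 4-fold for 29 and 18. The median size of the called differences was 0.80 on the log2 scale for higher genes and 0.66 for lower ones. Small differences were common too, with 79 higher and 50 lower calls under 0.5 on the log2 scale. The 5 Bmal1 KO libraries lay wholly above or below the 5 controls for 363 of the 467 called genes, against 864 of all genes tested (3.25%). Protein-coding genes made up 88.4% of the called genes and 64.9% of those tested. Counts of called members of the lists and families below are to be read beside the 1.75% over all genes. At unadjusted p under 0.05, 3110 of the 26612 genes passed in limma, and counts at that threshold are to be read beside this. Leaving out any 1 of the 10 libraries kept 255 of the calls in every case, 173 higher and 82 lower.

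The nearest library to the other group was not always the same. Among the 169 lower genes Bmal1 KO 4 was the library of its group closest to the controls for 65, and among the 298 higher genes Bmal1 KO 3 was for 80. Control 1 was the control closest to Bmal1 KO for 98 of the higher and 48 of the lower genes.

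**Figure D1:**
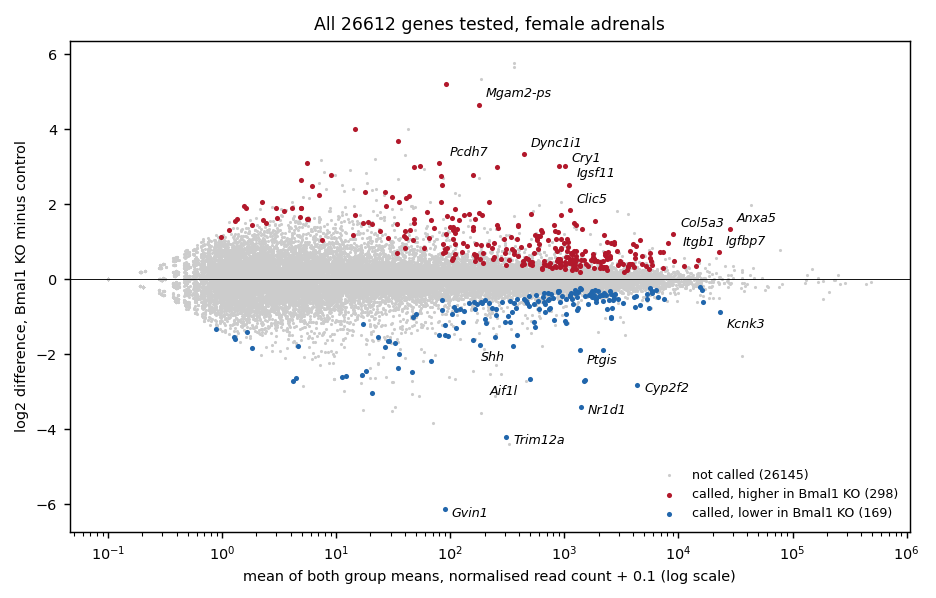
Log2 difference of each of the 26612 genes tested (Bmal1 KO minus control, female adrenals) against the mean of both group means in normalised reads, on a log axis with 0.1 added; red points are the 298 genes called higher, blue points the 169 called lower. Called genes lie on both sides over the whole range of levels, and they include highly read genes such as Anxa5 and Kcnk3.

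Arntl itself (chr7:113207465-113314126, plus strand, GRCm38) did not read lower in Bmal1 KO. Its reads were 650.1, 550.1, 494, 536 and 860.3 in controls 1 to 5 and 1010, 885, 854, 833 and 942 in Bmal1 KO 1 to 5. Control 5 lay among the Bmal1 KO libraries and the other controls below them. The difference was 0.57 ± 0.19 (SE) and was not called (adjusted p = 0.164). A sum over the whole gene includes any exon left in place, so it checks nothing about a deletion, and every direction given here rests on the labels.

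The 3 smallest adjusted p-values were those of Cry1, Npas2 and Dbp, all clock genes. Cry1, a repressor of CLOCK and BMAL1, read 218, 237, 214, 207 and 216 in the controls and 1666, 1891, 2137, 1699 and 1597 in Bmal1 KO, a rise of 3.03 ± 0.12 (adjusted p = 2.67e-12). Every Bmal1 KO library stood several times above every control. Npas2, which can stand in for CLOCK, rose by 3.01 ± 0.15. In the other direction, the REV-ERB genes Nr1d1 and Nr1d2 changed by -3.40 ± 0.26 and -2.72 ± 0.19, and Dbp, a bZIP factor that carries the rhythm to other genes, by -2.69 ± 0.15. Of 21 loop genes tested 5 were higher and 4 lower. They include Per2 (1.07 ± 0.23) and Cry2 (0.55 ± 0.09), both higher, and Bhlhe41 (-1.61 ± 0.23) and Per3 (-1.14 ± 0.22), both lower. Nfil3, a repressor that competes with DBP for its sites, rose by 1.26 ± 0.23.

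A few promoters show the letters through which this loop is known to act, in genes that moved in opposite directions. RefSeq promoters (GRCm38.p6, from 250 bases before to 50 after the start) matched 202 of the higher and 119 of the lower genes by symbol, and 14438 of all tested. The stretches below, 60 bases each and ending at or before the start, are printed 5′ to 3′ on the gene's strand with the motif in capitals. Cry1 and Sipa1l3 were called higher and Bhlhe41 and Kcnj2 lower, and each holds the E-box CACGTG. Acsbg1, Hpcal4 and Per3 were called lower and hold a D-box, the site of DBP and NFIL3, searched as TTATGCAA or TTATGTAA on both strands. Nfil3 holds the core of a REV-ERB and ROR site, TAGGTCA, read on the other strand.
Cry1 (chr10:85185082-85185141, minus strand): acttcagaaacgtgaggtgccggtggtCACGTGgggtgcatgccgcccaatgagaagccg
Sipa1l3 (chr7:29505613-29505672, minus strand): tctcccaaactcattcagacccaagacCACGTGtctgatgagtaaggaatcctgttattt
Bhlhe41 (chr6:145865541-145865600, minus strand): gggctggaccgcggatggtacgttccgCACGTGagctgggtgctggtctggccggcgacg
Kcnj2 (chr11:111066053-111066112, plus strand): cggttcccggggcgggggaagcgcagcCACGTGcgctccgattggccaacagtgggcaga
Acsbg1 (chr9:54661901-54661960, minus strand): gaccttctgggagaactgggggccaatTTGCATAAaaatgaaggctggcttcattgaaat
Hpcal4 (chr4:123183436-123183495, plus strand): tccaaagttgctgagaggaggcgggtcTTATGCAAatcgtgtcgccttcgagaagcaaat
Per3 (chr4:151044838-151044897, minus strand): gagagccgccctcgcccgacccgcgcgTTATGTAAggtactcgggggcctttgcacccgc
Nfil3 (chr13:52981040-52981099, minus strand): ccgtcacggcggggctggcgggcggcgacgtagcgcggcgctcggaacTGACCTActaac
Over all matched promoters the E-box stood in 27 of 254 of higher genes (10.6%), 12 of 156 of lower genes (7.69%) and 8.64% of 18190 for all genes tested. The E-prime-box CACGTT, which differs from it in the last base, stood in 18 of 254 (7.09%), 13 of 156 (8.33%) and 5.03%. The D-box stood in 2 of 254 (0.787%), 5 of 156 (3.21%) and 1.31%. Of the 5 lower ones 2 are the close relatives Trim5 and Trim12a, for which control 5 lay with Bmal1 KO and apart from the other controls. The RORE core stood in 2 of 254 (0.787%), 0 of 156 and 2.26%. A match describes these letters in this window and nothing about binding.

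Outside the clock, the named genes with the largest increases include a motor subunit, adhesion proteins and channels. Dync1i1 (chr6:5725639-6028039, plus strand), an intermediate chain of the dynein motor that carries cargo along microtubules, read 77.0, 113, 57.6, 88.8 and 58.7 in the controls and 576, 849, 1067, 645 and 863 in Bmal1 KO. That is a rise of 3.34 ± 0.27 (adjusted p = 1.55e-07), and every Bmal1 KO library stood several times above every control. Pcdh7 (chr5:57717967-58133230, plus strand), a protocadherin of cell contacts, read 57.2, 58.7, 73.8, 67.0 and 29.8 against 331, 517, 570.4, 452 and 387 and rose by 2.99 ± 0.32 (adjusted p = 8.37e-06). Igsf11 (chr16:38892671-39027159, plus strand), an adhesion protein of the immunoglobulin family, went from 332 ± 99.8 to 1883 ± 409.8 reads, a rise of 2.52 ± 0.23 (adjusted p = 8.9e-07). Its Bmal1 KO libraries ran from 1529 to 2536 and its controls from 238 to 485.

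Arhgef37, named as an exchange factor of small GTPases, read 18.7, 16.5, 23.4, 19.9 and 21.6 in the controls and 141, 106, 107, 220.0 and 152 in Bmal1 KO and rose by 2.75 ± 0.20 (adjusted p = 2.21e-08). Clic5, a chloride intracellular channel protein tied to the actin cortex, rose from 486 ± 89.9 to 1735 ± 94.8 reads, by 1.85 ± 0.11 (adjusted p = 1.62e-09). Tecta, a component of extracellular matrix in the inner ear, rose by 2.77 ± 0.48. Its controls were spread widely, from 13.4 to 98.9 reads, and its Bmal1 KO libraries from 170.0 to 391. The potassium channel gene Kcnf1 rose by 2.21 ± 0.42 from 10.2 ± 4.36 to 51.6 ± 27.7 reads, and Olah, a thioesterase that releases medium-chain fatty acids, by 2.07 ± 0.43. Sel1l3, a membrane protein, rose by 1.75 ± 0.26, with Bmal1 KO 4 the closest to the controls.

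Tmem45a2 and Shisa6 rose by 3.10 ± 0.62 and 3.01 ± 0.60, with uneven levels within Bmal1 KO. Shisa6 read 131, 134, 11.7, 155 and 20.2 in Bmal1 KO 1 to 5, so that Bmal1 KO 3 was near the controls, which ran from 4.12 to 10.8. Mgam2-ps, annotated as a pseudogene of an intestinal glucosidase, read 34.3, 10.3, 10.8, 11.8 and 4.12 in the controls and 634, 262, 218, 288 and 296 in Bmal1 KO. Control 1 and Bmal1 KO 1, both labelled 3.4 months, were the highest of their groups. Of the 20 named genes outside the loop with the largest rises, 13 kept their call without any 1 library.

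The called genes with the largest gains in reads include annexins, a collagen and an integrin. Anxa5 (chr3:36448923-36475894, minus strand), which binds membrane phospholipids in the presence of calcium, read 18038, 16763, 14354, 16045 and 14735 in the controls and 42331, 33593, 43010, 44243 and 38956 in Bmal1 KO. No library overlapped, and the rise was 1.34 ± 0.10 (adjusted p = 3.99e-08). The related Anxa2 rose by 0.36 ± 0.07, from 12475 ± 829.9 to 15986 ± 962 reads. Col5a3, a chain of fibrillar collagen V, rose by 1.20 ± 0.14 (from 5506 ± 933 to 12535 ± 1506 reads, adjusted p = 2.41e-05). Igfbp7, a secreted binding protein of insulin-like growth factors, rose by 0.72 ± 0.11 from 17227 ± 3243 to 28059 ± 2771 reads. Serpinb1a, an inhibitor of neutrophil proteases, rose by 0.98 ± 0.20 and Eif4g3, a scaffold of translation initiation, by 0.73 ± 0.12.

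The named genes with the largest decreases include enzymes of lipid, prostanoid and small-molecule metabolism. Cyp2f2 (chr7:27119909-27133660, plus strand), a cytochrome P450 on the list of X-zone and inner cortex genes, read 6798, 3646, 8296, 6169 and 12674 in the controls and 589.6, 989.7, 742, 2451 and 845 in Bmal1 KO. All Bmal1 KO libraries were below all controls, with Bmal1 KO 4 the closest, and the change was -2.82 ± 0.37 (adjusted p = 0.000117). Ptgis (chr2:167191805-167240604, minus strand), the prostacyclin synthase, read 1912, 1495, 1723, 2319 and 3380 against 697, 625, 648, 469 and 428 and changed by -1.88 ± 0.27 (adjusted p = 0.000356). Acsbg1 (chr9:54604877-54661870, minus strand), which activates long-chain fatty acids to their CoA form and whose D-box is printed above, read 2781, 2466, 3622, 4903 and 2980 against 897, 504, 962, 2082 and 589.7, a change of -1.88 ± 0.26 (adjusted p = 0.000245). Bmal1 KO 4 was again the highest of its group.

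Gulo (chr14:65986786-66009207, minus strand), the last enzyme of vitamin C synthesis in mice, went from 282 ± 58.2 to 83.0 ± 17.5 reads, a change of -1.75 ± 0.23 (adjusted p = 0.000104). Sord, which turns sorbitol into fructose and was chosen after its values were seen, changed by -1.12 ± 0.12, from 1399 ± 218 to 640.0 ± 81.7 reads (adjusted p = 8.09e-06). Its controls ran from 1113 to 1570 and its Bmal1 KO libraries from 552 to 749.7. Aif1l, an actin-binding protein, read 534, 854, 933, 952 and 987 in the controls and 144, 109, 90.9, 246 and 110.4 in Bmal1 KO and changed by -2.66 ± 0.33 (adjusted p = 5.29e-05). Oca2, a transporter of pigment organelles, changed by -1.53 ± 0.26, Apod, a carrier of small lipids, by -1.48 ± 0.27 and Hpcal4, a calcium sensor, by -1.30 ± 0.19. Mgat4c, a glycosyltransferase, changed by -1.48 ± 0.26, Samd5 by -1.48 ± 0.29 and Trim40 by -2.59 ± 0.52, the last from only 21.3 ± 8.63 to 2.94 ± 1.87 reads. Of the 20 named genes outside the loop with the largest falls, 17 kept their call without any 1 library. The 3 that did not had differences from -1.64 to -1.22.

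**Figure D2:**
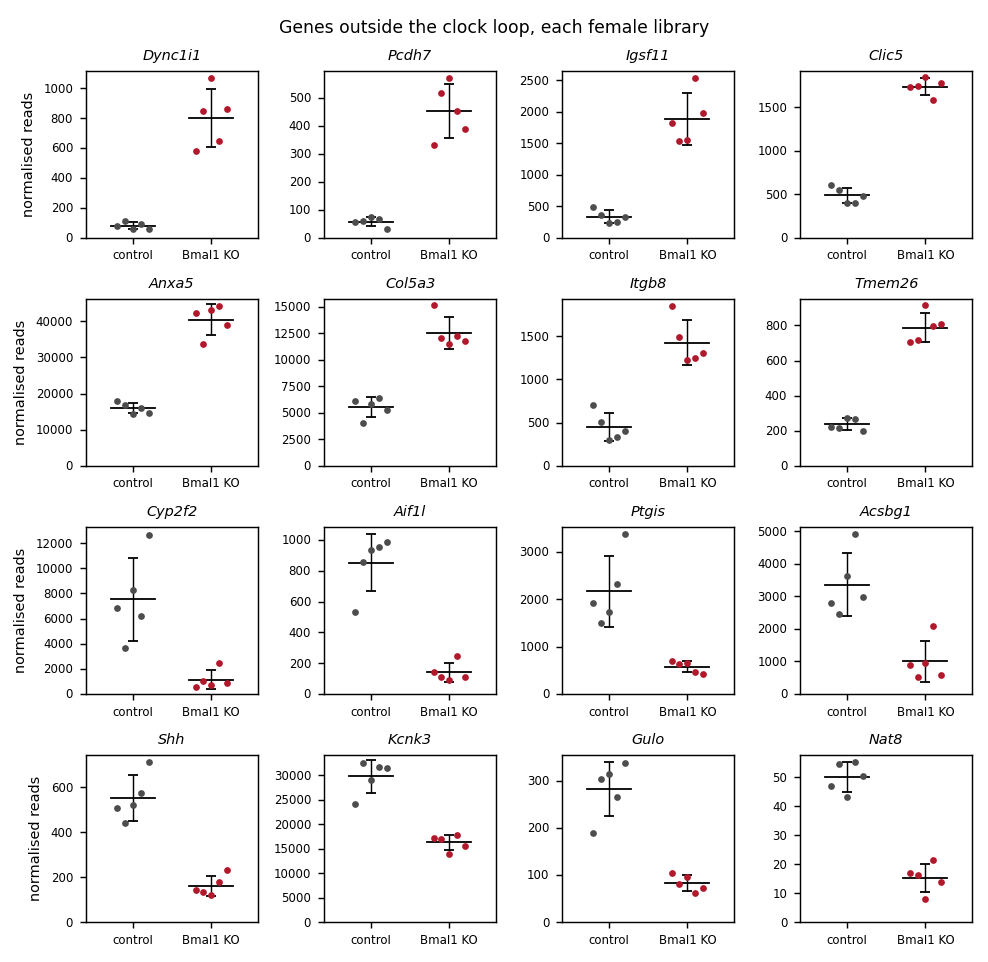
Normalised read counts of 16 genes outside the clock loop in each of the 10 female libraries, on linear axes that begin at 0; each point is 1 library, in the order 1 to 5, the dash is the group mean and the bar its SD. The 8 genes of the upper rows are higher in every Bmal1 KO library than in any control, as Dync1i1 (576 to 1067 against 57.6 to 113), and the 8 of the lower rows are lower in every one, as Kcnk3 (13919 to 17748 against 24054 to 32503).

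Genes of the outer cortex were lower where they were called. Of 15 zona glomerulosa genes tested 0 were higher and 3 lower (20%, beside 1.75% of all genes tested). Their median difference was -0.19 beside 0 over all genes tested. Shh (chr5:28456815-28467256, minus strand), the hedgehog ligand that subcapsular cortical cells send to the capsule, read 509, 442, 520.4, 573 and 714 in the controls and 143, 135, 119, 178 and 230.0 in Bmal1 KO. The groups did not overlap, and the change was -1.79 ± 0.29 (adjusted p = 0.00127). Kcnk3, a background potassium channel that helps set the membrane voltage of glomerulosa cells, read 24054, 32503, 29039, 31556 and 31366 against 17227, 16990, 13919, 17748 and 15519 and changed by -0.86 ± 0.15 (adjusted p = 0.0023). Wnt4, a WNT ligand of the outer cortex, changed by -0.77 ± 0.17, a call lost without control 4 (adjusted p = 0.052). Cyp11b2, the aldosterone synthase and the enzyme that defines the zone, differed by -0.26 ± 0.20 (adjusted p = 0.683), with -0.11 without control 2 and -0.40 without control 3 or 4. Dab2, another marker of the zone, differed by -0.19 ± 0.11 (adjusted p = 0.518). Reads of Cyp11b2 and its neighbour and near copy Cyp11b1 may be split between them.

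The hedgehog list had 1 higher and 2 lower of 16 (18.8%, beside 1.75% of all genes tested). Besides Shh, the co-receptor gene Boc changed by -0.38 ± 0.08, from 2909 ± 222 to 2223 ± 43.4 reads (adjusted p = 0.0099). Smo, the signal transducer, rose by 0.29 ± 0.07, a call lost without any library but controls 1 and 4 and Bmal1 KO 2 (adjusted p from 0.051 to 0.0773). The pathway's target genes Ptch1 and Gli1 differed by -0.20 ± 0.24 (adjusted p = 0.837) and -0.51 ± 0.22 (adjusted p = 0.338). Of 49 WNT and beta-catenin genes Wnt4 was the 1 call, and the median was -0.14.

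Potassium channels moved both ways, with 2 of 95 higher and 3 lower (5.26%, beside 1.75% of all genes tested). Kcnk1, a relative of Kcnk3, read 157, 90.7, 103, 121 and 239.8 in the controls and 43.9, 25.9, 55.8, 79.7 and 41.4 in Bmal1 KO and changed by -1.51 ± 0.28 (adjusted p = 0.00447). Kcnj2, an inward rectifier whose E-box is printed above, changed by -0.96 ± 0.17, with 286, 474, 306, 234 and 389 reads in the controls and 155, 178, 175, 157 and 175 in Bmal1 KO. The rectifier gene Kcnj4 rose by 1.30 ± 0.17, from 13.5 ± 2.53 to 34.4 ± 3.32 reads, as Kcnf1 did. Atp2b3, a calcium pump of the plasma membrane, was the 1 call among 43 calcium-handling genes, at -0.93 ± 0.12 (adjusted p = 0.000129). Its 5 Bmal1 KO libraries ran from 631 to 749 reads and its controls from 1167 to 1557.

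Most steroid-producing enzymes were not called. Of 24 genes of steroid synthesis tested 0 were higher and 1 was lower, with a median of -0.12. Por, which hands electrons to microsomal P450 enzymes, read 3502, 3814, 3568, 2917 and 3543 in the controls and 2076, 2453, 2246, 3080 and 2168 in Bmal1 KO and changed by -0.54 ± 0.11 (adjusted p = 0.0132). Bmal1 KO 4, at 3080, lay within the controls. Star, which brings cholesterol into mitochondria, read 198666, 260883, 206970, 192086 and 240010 against 158456, 133952, 138236, 186113 and 144780. All Bmal1 KO libraries lay below all controls, yet the difference of -0.53 ± 0.15 was not called (adjusted p = 0.0815). DESeq2 on the recovered reads called it (adjusted p = 0.017), and called 3 of the 24 genes, where edgeR called 1. Cyp11a1 differed by -0.19 ± 0.16, Cyp21a1 by -0.13 ± 0.11 and Cyp11b1 by -0.33 ± 0.19 (adjusted p = 0.727, 0.709 and 0.539). Single libraries moved these values: Cyp11a1 was at -0.03 without control 5 and nearer 0 still without controls 4 and 5, and Cyp21a1 at -0.08 without control 2 or Bmal1 KO 3. Nr5a1, the nuclear receptor that defines steroid-producing cells, differed by -0.17 ± 0.15 (adjusted p = 0.749).

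The lists of cholesterol synthesis and of its uptake, storage and export held 1 call each. Soat1, which esterifies cholesterol for storage, read 15790, 21571, 20329, 22222 and 19970 in the controls and 12051, 12658, 12502, 16052 and 12035 in Bmal1 KO, a change of -0.61 ± 0.12 (adjusted p = 0.0099). Bmal1 KO 4, at 16052, lay just above control 1, at 15790. It was the 1 call among 21 genes of uptake, storage and export. Of 25 synthesis genes 1 was higher and 0 lower, and their median was 0.35. Pmvk, the phosphomevalonate kinase, rose by 1.14 ± 0.17, from 379 ± 79.1 to 857 ± 290.3 reads (adjusted p = 0.000434). Hmgcs1, an earlier enzyme of the same path, differed by 1.04 ± 0.27 (adjusted p = 0.0526). It was called without control 1 or 5 (adjusted p = 0.0102 and 0.0491) and by DESeq2 (0.018). The synthesis list held 1 to 4 calls with 1 library left out and 3 with DESeq2. At unadjusted p under 0.05 the synthesis list held 13 of 25 genes, beside 3110 of all 26612 genes tested.

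Few genes of fatty acid use were called. Among 54 genes of fatty acid activation and oxidation 0 were higher and 2 lower (3.7%, beside 1.75% of all genes tested). These were Acsbg1 and Acsl1, both acyl-CoA synthetases, which activate fatty acids and do not oxidise them. Acsl1 changed by -0.82 ± 0.17, with 1167, 1613, 1388, 2000 and 1971 reads in the controls and 975, 719, 726, 1402 and 845 in Bmal1 KO, where Bmal1 KO 4 reached into the controls. Acsf2, a further acyl-CoA synthetase that is not on that list and was chosen after its values were seen, changed by -0.54 ± 0.09 (adjusted p = 0.00246). Etfa, which passes electrons from fatty acid oxidation to the respiratory chain and was chosen in the same way, rose by 0.72 ± 0.10, from 5504 ± 622 to 9009 ± 441 reads (adjusted p = 0.000245). Ptgis was the 1 call among 32 prostanoid and eicosanoid genes.

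Acetyltransferases of the Nat8 family were lower where called. Of 7 members tested 3 were lower and 0 higher, Cml5 (-2.38 ± 0.35), Cml3 (-1.81 ± 0.30) and Nat8 (-1.70 ± 0.20), and the median was -1.23. Nat8, which adds acetyl groups to cysteine conjugates, read 46.8, 54.6, 43.2, 55.2 and 50.4 in the controls and 16.8, 16.3, 8.10, 21.3 and 13.8 in Bmal1 KO. The 3 lie near each other on chromosome 6 and are close in sequence, so reads may be split between them. In glutathione and redox metabolism 1 of 56 genes was higher and 1 lower. Gstm7, a glutathione transferase, rose by 0.98 ± 0.09, from 1716 ± 227 to 3365 ± 191 reads (adjusted p = 2.16e-06), and the peroxidase Prdx6 changed by -0.52 ± 0.09, from 8754 ± 996 to 6116 ± 728. Cth, which makes cysteine from cystathionine, rose by 1.07 ± 0.21 (adjusted p = 0.00738) and was the 1 call of 61 amino acid and one-carbon genes.

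Metal handling was not on a list, and these genes were chosen after their values were seen. Steap1 and Steap2, which belong to a family of metal reductases, changed by -1.14 ± 0.23 and -0.55 ± 0.08. Steap2 read 2999, 3021, 3038, 3199 and 3602 in the controls and 2154, 2136, 2058, 2394 and 2047 in Bmal1 KO, without overlap (adjusted p = 0.000476). The related Steap3 changed by -0.63 ± 0.16, a call lost without any library but control 5 and Bmal1 KO 1 (adjusted p from 0.0574 to 0.136). The copper pump Atp7a changed by -0.40 ± 0.09, lost without any but controls 1 and 4 and Bmal1 KO 2 and 3 (0.0641 to 0.0919). Hfe, a membrane protein that tunes iron uptake, rose by 0.73 ± 0.10, from 1805 ± 219 to 2984 ± 323 reads (adjusted p = 0.000119), and the zinc exporter Slc30a2 rose too, from 1867 ± 676 to 3623 ± 741 reads (adjusted p = 0.00871). Slc30a2 is 1 of 8 solute carriers called higher of 358 tested, against 2 lower (2.79% called, beside 1.75% of all genes tested). The metal importers among them went both ways, Slc39a8 at 0.56 ± 0.14, lost without any library but control 2 and Bmal1 KO 2 (adjusted p from 0.0641 to 0.119), and Slc39a3 at -0.41 ± 0.09, lost without control 4 or Bmal1 KO 3 (0.0588 to 0.0589). Another higher carrier is Slc16a9, a monocarboxylate carrier, which rose by 1.36 ± 0.12 (adjusted p = 1.04e-06).

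Of 30 thyroid hormone and retinoid genes 4 were higher and 0 lower (13.3%, beside 1.75% of all genes tested), with a median of 0.21. Crym, a thyroid hormone binding protein of the cytosol (chr7:120186380-120202111, minus strand), read 16.6, 15.5, 15.3, 19.0 and 8.23 in the controls and 56.1, 58.6, 90.9, 93.2 and 65.3 in Bmal1 KO, a rise of 2.22 ± 0.23 (adjusted p = 4.35e-06). The receptors Thra and Thrb rose by 0.71 ± 0.10 and 0.61 ± 0.11, from 1732 ± 253 to 2821 ± 269 and from 1846 ± 179 to 2815 ± 274 reads. In Crym, Thra and Thrb the groups did not overlap. Thrb also stands on the list of 9 X-zone and inner cortex genes, of which 1 was higher, Thrb, and 1 lower, Cyp2f2. Thra and Nr1d1 overlap in the genome on opposite strands, and without a stated strand setting reads from the overlap cannot be told apart.

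In the cyclic nucleotide pathway 2 of 46 genes of ACTH receptor, cAMP and PKA signalling were higher and 3 lower, and 4 of the 5 were phosphodiesterases, which break down the second messenger. Pde5a, which acts on cGMP, read 1797, 1956, 1455, 2127 and 2062 in the controls and 3499, 3248, 4300, 3837 and 3122 in Bmal1 KO and rose by 0.94 ± 0.15 (adjusted p = 0.000741). Pde8b, a cAMP-specific enzyme of steroid-producing cells, rose by 0.58 ± 0.12, from 3343 ± 571 to 4957 ± 374 reads. Akap1, which anchors PKA at mitochondria, changed by -0.42 ± 0.08, from 1894 ± 66.4 to 1417 ± 84.8 reads, without overlap. Pde7a and Pde1a changed by -0.78 ± 0.18 and -0.84 ± 0.21. The Pde7a call was lost without any library but controls 4 and 5 and Bmal1 KO 2 and 4 (adjusted p from 0.0515 to 0.0884), and the Pde1a call without any but control 1 and Bmal1 KO 3 and 4 (0.0517 to 0.111).

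Of 92 G protein-coupled receptors named Gpr or Adgr 0 were higher and 1 lower (1.09%, beside 1.75% of all genes tested), the orphan receptor Gpr146 at -0.46 ± 0.08. Of 21 regulators of G protein signalling 0 were called by limma, edgeR or DESeq2, with 3 at unadjusted p under 0.05. The called genes named next were on no list and were chosen after their values were seen, so they describe single genes. Adra1d, an alpha-adrenergic receptor, rose by 1.43 ± 0.15, from 212 ± 34.9 to 571 ± 84.6 reads (adjusted p = 7.51e-06). Adora2b, an adenosine receptor, rose by 1.40 ± 0.26 and Adipor2, an adiponectin receptor, by 0.63 ± 0.13. The endothelin receptor Ednra changed by -0.52 ± 0.10, and Gna14, the alpha subunit of a G protein of the Gq class, by -0.53 ± 0.09. Among Ras-like genes Gem rose by 0.98 ± 0.14, from 1600 ± 332 to 3114 ± 153 reads, and Rasd1, known as a gene induced by glucocorticoids, changed by -1.18 ± 0.24, from 1421 ± 214 to 639.7 ± 172 reads.

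Of 32 genes of cell-cycle brakes and DNA damage 4 were higher and 2 lower (18.8%, beside 1.75% of all genes tested). Their median was 0.17. Cdkn2a (chr4:89274471-89294653, minus strand), the locus of the inhibitors p16 and p19, read 58.2, 34.0, 47.7, 82.4 and 35.0 in the controls and 151, 114, 163, 186 and 156 in Bmal1 KO and rose by 1.63 ± 0.25 (adjusted p = 0.00057). Trp53inp1, a target of p53, rose by 1.06 ± 0.13, from 2986 ± 649.6 to 6158 ± 719 reads (adjusted p = 6.21e-05), and Ccng2, a cyclin linked to arrest, by 0.86 ± 0.09 (adjusted p = 4.35e-06). Cdkn1a, the inhibitor p21, read 402, 377, 474, 389 and 761 against 893, 1141, 758, 1205 and 852 and rose by 1.04 ± 0.19 (adjusted p = 0.00461). Control 5, at 761, lay within Bmal1 KO.

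The 2 lower members of that list were Sesn3, a stress-induced inhibitor of growth signalling, at -0.37 ± 0.07, and Cdkn1b, the inhibitor p27, at -0.46 ± 0.10. The Cdkn1b call was lost without any library but controls 2, 3 and 4 and Bmal1 KO 1 (adjusted p from 0.0506 to 0.0569). Genes of DNA replication and mitosis had 2 of 51 higher (3.92%, beside 1.75% of all genes tested), 0 lower and a median of 0.30. Mcm6, a subunit of the replicative helicase, read 735, 601, 502, 493 and 612 in the controls and 917, 1532, 1018, 1584 and 1283 in Bmal1 KO, a rise of 1.09 ± 0.23 (adjusted p = 0.0141). Pcna, the sliding clamp, rose by 0.48 ± 0.10. Glucocorticoid receptor targets were higher in 2 of 17, Cdkn1a and Nfkbia, the latter an inhibitor of NF-kappa-B, at 0.76 ± 0.15. In both genes control 5 lay among the Bmal1 KO libraries.

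Ligands and targets of the TGF-beta family were higher in 4 of 54 and lower in 0 (7.41%, beside 1.75% of all genes tested). Inha, the alpha subunit of inhibin, read 398, 393, 360.1, 334 and 354 in the controls and 742, 1058, 809, 618 and 645 in Bmal1 KO and rose by 1.05 ± 0.15 (adjusted p = 0.000226). Id1, a target of BMP signalling, rose by 0.77 ± 0.13, from 931 ± 179 to 1578 ± 241 reads. The related Id3 rose by 0.53 ± 0.12, a call lost without control 2 or 3 or Bmal1 KO 3 (adjusted p from 0.0612 to 0.0655). The ligand Bmp5 rose by 1.23 ± 0.30, a call lost without any library but control 2 and Bmal1 KO 3 (adjusted p from 0.0509 to 0.114). Lefty1, a secreted inhibitor of Nodal and chosen after its values were seen, changed by -1.18 ± 0.17, from 286 ± 44.9 to 127 ± 29.1 reads (adjusted p = 0.000318).

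On the list of 67 growth factor and MAPK feedback genes 2 were higher and 1 lower (4.48%, beside 1.75% of all genes tested). These were Igfbp7, the growth factor Vegfc at 0.85 ± 0.19, and the FGF receptor Fgfr1 at -0.43 ± 0.09. The Vegfc call was lost without any library but controls 1, 2 and 5 and Bmal1 KO 1 (adjusted p from 0.0529 to 0.0696). Figf is the symbol here of vascular endothelial growth factor D. The list holds that gene as Vegfd, so the counts above leave it out. Figf read 1716, 1681, 1290, 1219 and 987 in the controls and 3394, 2936, 2974, 2907 and 3082 in Bmal1 KO. It rose by 1.18 ± 0.17 (adjusted p = 0.000322). Angpt1, a ligand of the endothelial receptor TIE2, rose by 0.74 ± 0.15 and Metrnl, a secreted cytokine-like protein, by 1.27 ± 0.16. In the other direction, Gas6, a ligand of the TAM receptor kinases, changed by -0.69 ± 0.13 and Ptn, a heparin-binding growth factor, by -0.76 ± 0.16. Enpp2, which makes the lipid signal lysophosphatidic acid, rose by 0.76 ± 0.16, and Pcsk6, a protease that matures secreted growth factors, by 1.20 ± 0.26. Angpt1, Gas6, Ptn, Enpp2 and Pcsk6 were chosen after their values were seen.

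The called integrin, collagen and laminin genes were all higher. Of 29 integrins 3 were higher and 0 lower (10.3%, beside 1.75% of all genes tested). Itgb1, the subunit shared by many integrins, read 11870, 12222, 11970, 12311 and 12338 in the controls and 16320, 16567, 19289, 17406 and 16933 in Bmal1 KO, a small and even rise of 0.51 ± 0.07 (adjusted p = 0.000281). Itgb8, which activates latent TGF-beta, read 705, 509, 296, 337 and 397 against 1855, 1492, 1221, 1248 and 1309 and rose by 1.72 ± 0.21 (adjusted p = 4.91e-05). Itga2, a collagen-binding subunit, rose by 0.83 ± 0.20, a call lost without any library but control 2 and Bmal1 KO 5 (adjusted p from 0.0509 to 0.0931). Of 54 collagen and laminin chains 2 were higher, Col5a3 among them, and 0 lower (3.7%).

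Further matrix genes were chosen after their values were seen. Fbn1, the microfibril protein fibrillin, rose by 0.82 ± 0.17 and Loxl4, a cross-linking oxidase of the lysyl oxidase family, by 1.72 ± 0.30. Gpc6, a cell-surface heparan sulfate proteoglycan, rose by 0.95 ± 0.13 (adjusted p = 0.00014). Hs3st1, a sulfotransferase that acts on heparan sulfate, rose by 1.15 ± 0.21 and Sulf2, a sulfatase, by 0.97 ± 0.19. Control 1 was the highest control for Hs3st1, at 548 reads, and for Sulf2, at 1136. Sulf1, the other sulfatase of this kind, changed by -1.27 ± 0.29, from 778 ± 125 to 325 ± 80.3 reads, a call lost without control 2, 3 or 5 or Bmal1 KO 3 or 5 (adjusted p from 0.0553 to 0.0686). Hs6st1, a further sulfotransferase, rose by 0.41 ± 0.09, lost without control 3 or 4 or Bmal1 KO 1, 2 or 5 (0.0527 to 0.0562). Egfl6, a secreted protein of basement membranes, changed by -1.14 ± 0.21. Microtubule motors had 2 of 46 higher (4.35%, beside 1.75% of all genes tested), Dync1i1 and the kinesin light chain Klc3 (1.04 ± 0.17). Mapt, the microtubule protein tau, was chosen after its values were seen. It changed by -0.62 ± 0.12, from 3941 ± 432 to 2576 ± 437 reads (adjusted p = 0.00524).

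Genes of insulin and growth signalling were not on a list either and were chosen after their values were seen. Akt2, a kinase of the insulin pathway, changed by -0.43 ± 0.09, from 4854 ± 526 to 3605 ± 467 reads. Its substrate Tbc1d4, which holds glucose transporters inside the cell, rose by 0.70 ± 0.14. Deptor, an inhibitor of the mTOR kinase, read 4708, 6538, 5145, 4595 and 5045 in the controls and 2573, 3356, 3582, 3277 and 2844 in Bmal1 KO and changed by -0.73 ± 0.12 (adjusted p = 0.00121). Egln3, an oxygen-sensing hydroxylase, rose by 1.70 ± 0.35, from 91.0 ± 47.1 to 286 ± 98.8 reads. Ncald, a neuronal calcium sensor, rose by 1.56 ± 0.17 (adjusted p = 9.93e-06), and Sipa1l3, which controls the small GTPase Rap, by 1.51 ± 0.21, with 799, 410.0, 884, 862 and 357 reads in the controls and 1476, 2178, 1719, 1897 and 1581 in Bmal1 KO. Tmem26, a membrane protein, rose by 1.74 ± 0.13 (adjusted p = 3.99e-08).

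Several lists held a call that was lost on leaving out a library. Herpud1 of the unfolded protein response changed by -0.37 ± 0.09, lost without any library but Bmal1 KO 3 and 4 (adjusted p from 0.0534 to 0.141), while Sel1l, of the same degradation machinery, rose by 0.48 ± 0.09 and kept its call. Rsad2 of the interferon list rose by 0.48 ± 0.12, lost without any but control 1 and Bmal1 KO 1 and 2 (0.053 to 0.125). Orm2, an acute-phase protein, rose by 2.34 ± 0.57, lost without any but controls 2 and 5 and Bmal1 KO 3 (0.051 to 0.0983). Dmrta1, a transcription factor on the cortical list, rose by 1.79 ± 0.44, lost without any but control 1 (0.0533 to 0.113).

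By limma 0 members were called in 6 function lists. They were fatty acid and glycerolipid synthesis (40 genes), glucose and central carbon metabolism (56), NAD synthesis and sirtuins (21), mitochondrially encoded respiratory chain (13), immediate early genes (29) and heat shock (33). At unadjusted p under 0.05, in that order, 7, 6, 1, 0, 3 and 5 of their genes passed, beside 3110 of all 26612. With edgeR each list again had 0 calls, and with DESeq2 the calls numbered 3, 3, 1, 0, 0 and 0. Among gene families, ribosomal proteins (83 tested), histones (69), kinesins (36) and proteasome subunits (41) held 0 calls by limma, 24, 5, 5 and 4 at unadjusted p under 0.05, 2, 0, 0 and 0 by edgeR and 5, 0, 0 and 1 by DESeq2. For ribosomal proteins the median difference was -0.11.

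**Figure D3:**
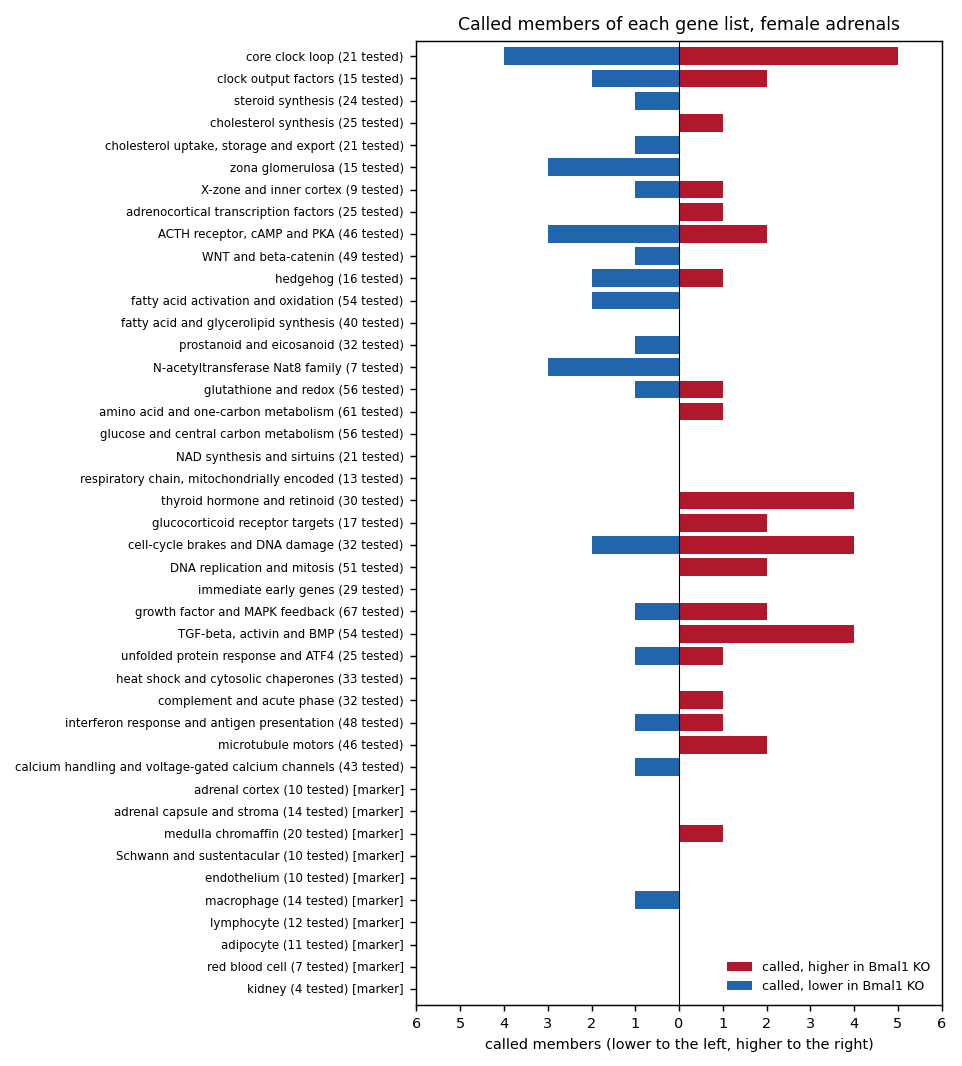
Number of called members in each gene list, lower in Bmal1 KO to the left and higher to the right, with the number of genes tested in brackets; lists tagged as markers are those of cell types. Calls stand on one side alone for the thyroid and retinoid list (4 higher), the TGF-beta list (4 higher), the zona glomerulosa list (3 lower) and the Nat8 family (3 lower), and on both sides for the core clock loop (5 and 4).

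Markers of the cell types in the gland were mostly not called. The 10 markers of the adrenal cortex held 0 calls by limma and edgeR, 1 by DESeq2 and 3 at unadjusted p under 0.05, and summed to between 1186881 and 1563002 reads in the controls and 1124437 and 1406746 in Bmal1 KO. Of 20 chromaffin markers of the medulla, whose median difference was -0.21, 5 passed at unadjusted p under 0.05 and 1 was called, Gch1, which makes a cofactor of catecholamine synthesis, at 0.49 ± 0.12. That call was lost without any library but control 5 (adjusted p from 0.0575 to 0.105). Th, the enzyme that defines these cells, read 8787 to 13818 in the controls and 7469 to 8595 in Bmal1 KO, without overlap, and differed by -0.40 ± 0.18 (adjusted p = 0.375). The list summed to 160318 to 212555 reads in the controls, with a median of 180366, and to 144310.2 to 186232 in Bmal1 KO, with a median of 146952. Of 14 macrophage markers 1 was called, the mannose receptor Mrc1, at -0.59 ± 0.11 (from 560.2 ± 61.4 to 372 ± 35.1 reads). The macrophage list summed to 10171 to 36290 in the controls, with a median of 11077, and to 12983 to 21277 in Bmal1 KO, with a median of 15383.

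Markers of capsule and stroma, Schwann cells, endothelium, lymphocytes, adipocytes, red blood cells and kidney held 0 calls by limma. At unadjusted p under 0.05, in that order, 2, 2, 3, 3, 1, 3 and 0 of them passed, beside 3110 of all 26612 genes. Each marker list again had 0 calls with edgeR, and with DESeq2 the calls numbered 0, 0, 1, 2, 0, 0 and 0. Red blood cell markers summed to 6140 to 17024 reads in the controls and 9785 to 20787 in Bmal1 KO, and endothelial markers to 18649 to 19929 and 19478 to 24291. Adipocyte markers, whose median difference was -0.91, summed to 5461 to 18896 reads in the controls and 6197 to 12783 in Bmal1 KO. Lymphocyte markers, with a median of 0.47, summed to 2415 to 3976 and 3109 to 4166. The kidney markers Slc34a1 and Umod were at 0 in all 10 libraries. The part of these sums in the gene differences was not tested.

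A stretch of chromosome 7 on one side of Arntl held lower calls in which 1 control lay apart from the others. Of 249 genes tested within 10 Mb of Arntl 10 were called, 6 higher and 4 lower (4.02%), against 1.25% on the rest of the chromosome. Trim12a (chr7:104299894-104315466, minus strand), of a cluster of antiviral TRIM genes, read 710.4, 660.4, 928, 694 and 13.4 in controls 1 to 5 and 30.8, 20.2, 16.2, 6.73 and 21.2 in Bmal1 KO 1 to 5. Its neighbour Trim5 read 149, 148, 151, 112 and 14.4 against 29.0, 19.2, 13.5, 21.3 and 15.6, and Gm15133, an antisense transcript next to Trim12a, 11.4, 11.3, 9.90, 9.96 and 0 against 0.934, 0, 0, 0 and 0. Gvin1 (chr7:106156556-106215326, minus strand), an interferon-inducible GTPase, read 409, 140.1, 167, 176 and 0 against 0 in every Bmal1 KO library. In all 4 genes control 5 lay with the Bmal1 KO libraries and apart from controls 1 to 4.

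The fitted changes were -4.21 ± 0.94, -2.17 ± 0.54, -2.64 ± 0.58 and -6.13 ± 1.34 for Trim12a, Trim5, Gm15133 and Gvin1. Where a group is at 0 the fitted value depends on the pseudocount. With a floor of 3 reads per library in Bmal1 KO, a mean of 2.90 normalised reads, the control mean of Gvin1 makes it at least 61.4-fold lower. The males split differently: Trim12a read 508, Trim5 115, Gm15133 4.64 and Gvin1 167 in Bmal1 KO male 2, while no other male library passed 43.0, 29.5, 0 and 0. Trim5 and Trim12a are close relatives, and Gm15133 overlaps Trim12a, so reads may be shared. The Trim5 call was lost without any library but control 5 (adjusted p from 0.0533 to 0.116). That of Trim12a was lost without control 1, 2, 3 or 4 or Bmal1 KO 4 (0.0504 to 0.0646), that of Gm15133 without control 2, 3 or 4 (0.0557 to 0.0565), and that of Gvin1 without control 3 or 4 (0.0501 to 0.0513). Without controls 4 and 5 the changes were -5.38, -2.91, -3.38 and -7.74 for Trim12a, Trim5, Gm15133 and Gvin1. Their adjusted p-values in that limma fit were 0.000566, 0.00137, 0.000498 and 0.000969. A limma fit of the female libraries alone did not call them (adjusted p from 0.0593 to 0.126).

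In the 6 higher genes of the window control 5 did not lie with Bmal1 KO. Crym lies 6.87 Mb beyond Arntl and next to it Tmem159, which helps lipid droplets form and rose by 0.88 ± 0.15, from 2954 ± 495 to 5478 ± 1200 reads. Insc, which orients the division spindle and is the nearest of the called genes, at 1.43 Mb, read 124, 60.8, 83.7, 112 and 77.2 in the controls and 266, 195, 188, 309.8 and 178 in Bmal1 KO and rose by 1.31 ± 0.24 (adjusted p = 0.00447). Gm47282, annotated as a microRNA gene, was at 0 in all controls and at 5.61, 3.84, 2.70, 2.24 and 0.920 in Bmal1 KO, which is a few reads. Nlrp10 rose by 1.18 ± 0.30, a call lost without any library but controls 1 and 2 (adjusted p from 0.0503 to 0.121), and Olfr613 by 0.42 ± 0.09, lost without Bmal1 KO 3 (0.0545).

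**Figure D4:**
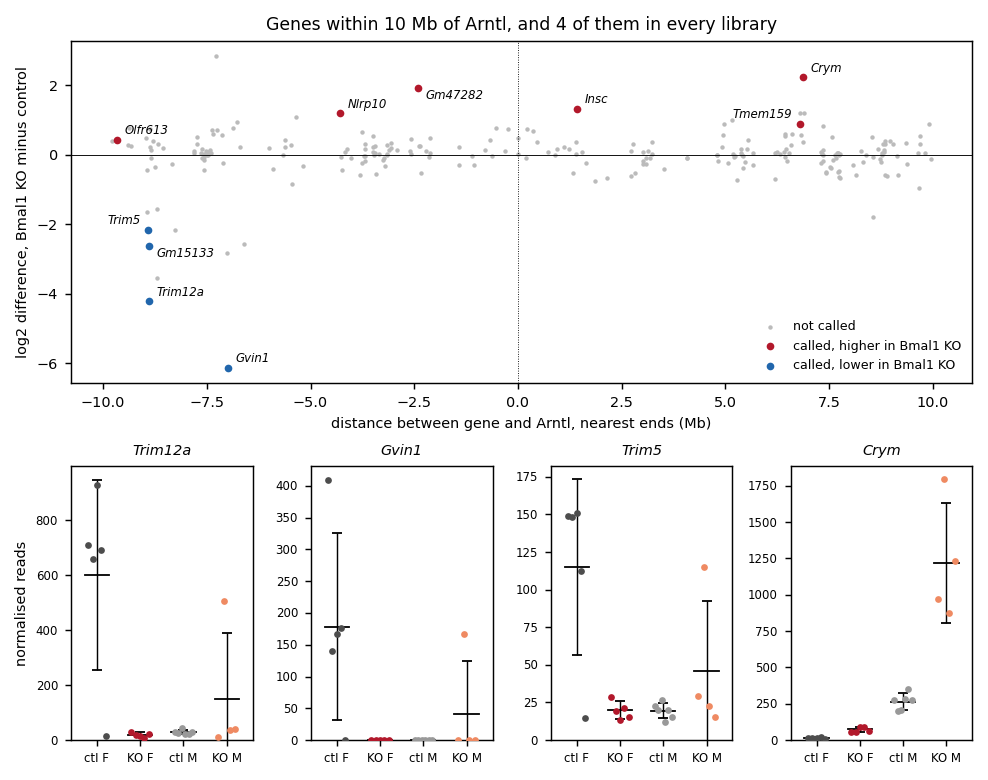
Upper panel: log2 difference of genes within 10 Mb of Arntl (Bmal1 KO minus control, females) against their distance from it in Mb, called genes in colour. Lower panels: normalised reads of 4 of them in every library of the series by group (ctl, control; F, female; M, male), with mean and SD, the lower end of a bar being cut at 0; control 5 of the females and Bmal1 KO male 2 stand apart from their groups for Trim12a, Gvin1 and Trim5, and none does so for Crym in females.

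The males give the same contrast in other libraries, though the fit takes 1 estimate of spread from all 20. Of the 467 genes called in females 412 had the same sign in males (88.2%), against 57.9% of all genes tested. In males 354 genes were called (1.33%). Of the female calls 150 were also called in males, all in the same direction, 96 higher and 54 lower, which is 32.1% of the female and 42.4% of the male calls. Among those set out above, Crym rose by 2.16 ± 0.23 in males, Tmem26 by 1.63 ± 0.13, Igsf11 by 1.71 ± 0.23 and Dync1i1 by 1.74 ± 0.28. Sord changed there by -1.09 ± 0.12, Nat8 by -2.11 ± 0.21, Shh by -1.53 ± 0.30 and Gulo by -1.66 ± 0.23. Cyp2f2 was hardly read in male controls, at 34.6 ± 18.2 against 7517 ± 3336 in female controls, so that a fall there could hardly be seen, and differed by 0.04 ± 0.38 in males. Acsbg1 differed by -0.12 ± 0.27 there. Neither was called in males, and the difference between the sexes was not called for either (adjusted p = 0.0602 and 0.151).

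The difference between the sexes itself was called for 8 of all genes tested (0.0301%), of which 4 were called in females. Pcdh7 rose by 2.99 ± 0.32 in females and differed by 0.27 ± 0.33 in males, with an adjusted p of 0.0331 for the difference. Metrnl rose by 1.27 ± 0.16 in females, from 368 ± 74.0 to 895 ± 212 reads, and differed by -0.09 ± 0.16 in males (adjusted p = 0.0315 for the difference). Clic5 and Arhgef37 rose in both sexes, by 0.85 ± 0.11 and 1.12 ± 0.20 in males, and more in females (adjusted p = 0.0315 and 0.0333). With age as a covariate 0 differences between the sexes were called by limma, with 1801 genes at unadjusted p under 0.05. An interaction was not fitted with edgeR or DESeq2.

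**Figure D5:**
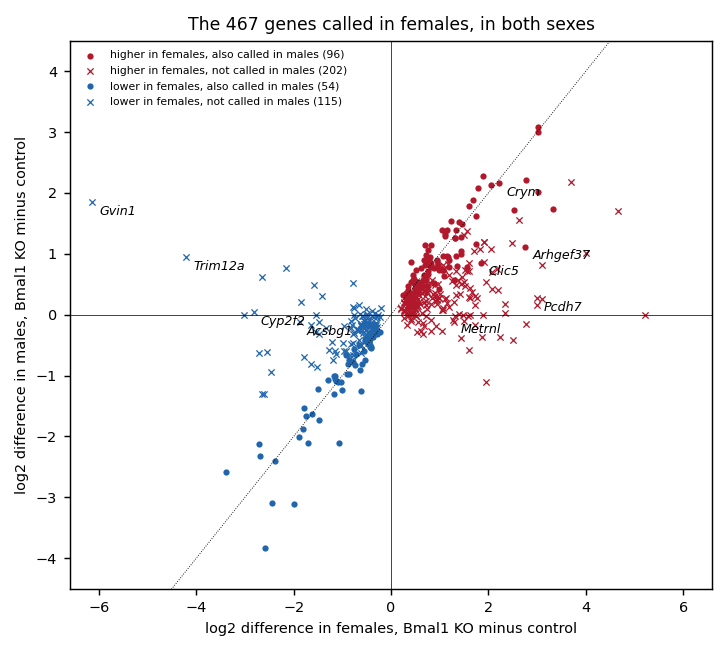
Log2 difference in males against that in females for the 467 genes called in females, each Bmal1 KO minus control; circles were called in both sexes, crosses in females alone, and the dotted line marks equal differences. Most points share their sign (412 of 467), Gvin1 and Trim12a lie in the opposite quadrant, and Pcdh7 and Metrnl lie near 0 in males.

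Age differed between the groups, since controls 4 and 5 were 1.5 months old and no Bmal1 KO female was under 2.4. With age as a covariate 456 genes were called, and 418 of the 467 were among them. Without controls 4 and 5 there were 262 calls, 228 of them among the 467, and all 467 kept their sign. That fit also has fewer libraries, and the part of age in the loss was not tested. Of 145 called genes named here 139 were called with the age covariate, all but Nlrp10, Pde1a, Herpud1, Dmrta1, Steap3 and Slc39a8, and 107 without controls 4 and 5. The 38 not called there were, outside those 6, Per2, Shisa6, Kcnf1, Olah, Trim40, Soat1, Serpinb1a, Olfr613, Gm47282, Wnt4, Pde8b, Pde7a, Smo, Acsl1, Cdkn1b, Mcm6, Bmp5, Itga2, Vegfc, Fgfr1, Steap1, Gch1, Rsad2, Adora2b, Egln3, Hs3st1, Tbc1d4, Rasd1, Ptn, Egfl6, Sulf1 and Hs6st1. Cyp2f2 changed by -2.73 with the covariate and -2.59 without the youngest controls (adjusted p = 0.000255 and 0.00241), and Shh by -1.79 and -1.64 (0.0025 and 0.0244).

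A fit of the 10 female libraries alone, without the males' share in the estimate of spread, called 115 of these 145 genes. The 30 it did not call were Tmem45a2, Shisa6, Kcnk1, Gvin1, Nlrp10, Trim5, Trim12a, Olfr613, Gm15133, Acsl1, Cdkn1b, Nfkbia, Bmp5, Id3, Itga2, Cth, Herpud1, Slc30a2, Rsad2, Sulf2, Fbn1, Adipor2, Akt2, Gas6, Ptn, Pcsk6, Hs6st1, Steap3, Slc39a8 and Atp7a. With a pseudocount of 0.1 the calls of Shisa6, Olah, Nlrp10, Gm15133, Orm2 and Dmrta1 were lost. Without a filter on low values those of Nlrp10, Trim5, Herpud1, Gch1, Rsad2, Dmrta1 and Steap3 were lost, after TMM scaling that of Gch1, and with edgeR that of Gvin1.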

How the data were processed

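RNA of 20 whole-adrenal libraries was sequenced, 10 of them from females. The values are a signal, read counts per gene that the deposited table holds already divided by 1 factor per library. Named in the submitters' processing notes, with no role, are the builds GRCm38 and mm10 and the tools DESeq2, Salmon, featureCounts, MultiQC and FastQC. Tool versions are not given in the sources used. Whole reads were recovered for 100% of values, within 0.001 of a read.

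Values were tested as log2(value + 1) with limma 3.58.1 (R 4.3.3, limma-trend), with 1 mean for each of 4 groups over 20 libraries. Genes had to reach a value of 1 in 4 or more libraries, and Benjamini-Hochberg adjustment ran over the 26612 genes tested, with a threshold of 0.05. The scripts were tested on simulated data. edgeR 4.0.16 (quasi-likelihood) on the recovered reads called 518 genes, 308 higher and 210 lower. DESeq2 1.42.0, other pseudocounts, filters and scalings, an age covariate, female libraries alone, a replicate block and leaving out each female library were the alternatives.

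Genes were placed with GENCODE M21, which held 47310 of 47729 identifiers. Of 9761 missing names 9644 came from a table of gene names. Genes named without remark are the 20 largest rises and 20 largest falls without overlap (mean of at least 20 reads in the higher group, no loop or predicted gene), the 10 largest differences in reads, the 10 smallest adjusted p-values, list members, and calls within 10 Mb of Arntl or with a called sex difference. The comparison and lists were chosen with earlier results of these data known. Some genes covered by the naming rule are not reported here.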

Additional observations from a re-analysis of the deposited data

Results flagged for a closer look

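Single libraries that stood apart from the rest of their group were looked for in 312 groups of 5 libraries, those of the genes named above. The measure is the gap to the nearest other library as a share of the group's range, with 0.71 as the critical value. It was passed in 26 groups (8.33%). That value marks about 1 in 20 by chance where values are normally distributed and groups are separate. These groups hold reads on a linear scale from the same libraries, so the shares cannot be compared.

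Bmal1 KO 1, the oldest of its group, was high for Mgam2-ps (0.812), Tmem45a2 (0.797), Col5a3 (0.794), Pmvk (0.749), Cdkn1b (0.802) and Hmgcs1 (0.82), and for Gm15133 (1.0), which it alone read in its group. Bmal1 KO 4 was high for Cyp2f2 (0.785), Cml5 (0.796), Acsbg1 (0.71) and Soat1 (0.845), 4 genes that are lower in Bmal1 KO, and for Nlrp10 (0.73) and Adipor2 (0.761). It was low for Angpt1 (0.773). Bmal1 KO 3 was low for Trp53inp1 (0.82) and Hs6st1 (0.734).

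Among the controls, control 1 was high for Mgam2-ps (0.747). Control 2 was high for Dbp (0.764), Apod (0.803), Ncald (0.787), Lefty1 (0.77) and Deptor (0.717). Control 5 was high for Cyp11a1 (0.858), at 126507 reads with the next control at 75575, and for Cdkn1a (0.747). It was low for Trim5 (0.715) and Gm15133 (0.866), where it lay with the Bmal1 KO libraries.

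The difference between females and males passed the test for 4 of the genes called in females. The female minus male difference of log2 differences was 2.72 for Pcdh7, 1.64 for Arhgef37, 1.37 for Metrnl and 0.998 for Clic5. The adjusted p-values from limma were 0.0331, 0.0333, 0.0315 and 0.0315. With age as a covariate the difference was called for 0 genes.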

How the results depend on the processing

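The count of 467 calls was within 1.5 times under pseudocounts of 0.1 (444) and 10 (491), without a filter (418), with a stricter one (511), with the age covariate (456), after TMM scaling (466) and with edgeR (518). DESeq2 called 906 genes, 527 higher and 379 lower. The female libraries alone gave 324 calls, 216 higher and 108 lower. Without the controls aged 1.5 months there were 262 calls, 168 higher and 94 lower; the cause was not tested. Leaving out 1 library gave 335 to 477 calls, 215 to 296 higher and 108 to 181 lower, the fewest lower without control 4. With the replicate number as a block the female libraries gave 196 calls, 128 higher and 68 lower, 174 of them among the 467. The correlations of same-numbered libraries were 0.278, 0.106, 0.0421, 0.165 and 0.0303, not all over 0.1. For 4 of the 5 Bmal1 KO libraries the same-numbered control was the closest, while Bmal1 KO 3 was closest to control 4. This is a hint from the data, the labels state no pairing, and the numbers were not taken to pair the libraries. Within each female group the numbers run from the oldest to the youngest age label, so the block also follows the order of age. The 8 sex differences fell to 0 with the age covariate. Of the 145 called genes named above 119 kept the call without any 1 library. The female libraries alone called 115 of them, edgeR 142, DESeq2 143, a pseudocount of 0.1 139 and no filter 138. With edgeR and DESeq2 all but Gm15133 and Gm47282 had an adjusted p. Counts near 0 limit Gm15133, Gm47282 and Trim40.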
